A study of Homo sapiens with 6 samples.

Results

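Polyamines are made and broken down by a small set of enzymes, and 10 genes of that cycle were followed here in human B cells in which c-Myc was switched on. The members were fixed by name: the synthesis genes ODC1, AMD1, SRM and SMS, the antizyme system OAZ1, OAZ2 and AZIN1, and the breakdown genes SAT1, PAOX and SMOX. All 10 had probe sets on the array, and all 10 passed the filter on dim signal, among 12198 genes that did so out of 18244 with a named probe set.

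Putrescine, spermidine and spermine are small positively charged molecules that bind nucleic acids and are needed for translation and growth. Ornithine decarboxylase makes putrescine, and 2 synthases add aminopropyl groups from decarboxylated S-adenosylmethionine to give spermidine and then spermine. An acetyltransferase and a pair of oxidases run the cycle backwards, and antizyme proteins bind ornithine decarboxylase and send it to the proteasome. Polyamine synthesis is known for its dependence on MYC in lymphoid cells.

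The cells were P493-6, which the labels call a B-cell lymphoma line and which carry, in every group, a c-Myc transgene that tetracycline represses. Tetracycline had been withdrawn for 0 hours in the low-Myc group, for 1 hour in mid-Myc and for 24 hours in high-Myc, with 2 arrays per group described as biological duplicates. For mid-Myc the growth field of the labels reads 0 hours and the treatment field 1 hour, and the second was used. The labels do not say whether mid-Myc was hybridised alongside the other groups, so differences between array runs and effects of the first hour cannot be told apart.

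Values are given in 3 forms. Intensity is the deposited probe set signal on a linear scale. The equal-median scale is log2 signal after subtracting, array by array, the median over human probe sets, so a change is relative to the bulk of them. On the per-cell scale a curve through the ERCC synthetic RNAs, which were added by cell number, was subtracted. A gene was called at an adjusted p under 0.05 (limma, Benjamini-Hochberg over all 12198 genes). In bulk RNA, fewer cells that express a gene and less RNA per cell cannot be told apart.

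Replicate arrays correlated at r = 0.996 in each group across genes, which are not independent replicates, and no probe set had the same intensity on both. The MYC probe set read 10471 and 10279 intensity in low-Myc, 10031 and 9941 in mid-Myc and 11888 and 11979 in high-Myc arrays. At 24 hours MYC rose by 0.34 log2 on the equal-median scale and by 0.96 log2 on the per-cell scale, where the median gene lay at 0.97 log2. The rise was 0.14 log2 when arrays were centred on the tested genes. With 1 ERCC factor per array it was 1.42 log2, and the median gene lay at 1.13 log2. At 1 hour MYC was called higher by 0.095 log2 on the equal-median scale and 0.13 log2 on the per-cell scale. It lay at -0.055 log2 in the values as deposited. It was called lower with quantile normalization (-0.15 log2, adjusted p = 0.00596) and cyclic loess (-0.16 log2, adjusted p = 0.00337), so it does not check the mid-Myc label. All 7 B cell markers with a probe set of 1 gene symbol (MS4A1, CD79A, CD79B, PAX5, CD22, CD74 and BLNK) were above the filter level of 33.8 intensity. The summed intensity of 8 monocyte markers was 3465 and 3575 in low-Myc, 3536 and 3617 in mid-Myc and 946 and 947 in high-Myc arrays. Of these 8, LYZ, ITGAM, CD68 and CSF1R were above the filter level and CD14, FCGR3A, S100A8 and S100A9 were not. LYZ went from 1206 and 1191 to 397 and 377 intensity between low-Myc and high-Myc, and ITGAM from 1963 and 2068 to 359 and 380. Of 8 T and NK cell markers, CD3D, CD8A and KLRD1 were not above it, and the sum was 253 to 383 over the 6 arrays. B cell marker sums also fell, from 25908 and 26078 to 17401 and 17518 intensity. PAX5 did not, at 753 and 918 in low-Myc and 866 and 939 in high-Myc. Measured per cell at 24 hours, 5 of 7 B cell markers were called higher and 1 lower (median 0.30 log2, all genes 0.97). Of 5 tested T and NK cell markers, 4 were called higher and 1 lower. Of 4 tested monocyte markers, 0 were called higher and 2 lower. Of all genes, 90.8% were called higher and 2.53% lower on this scale. The falls of the B cell and of the T and NK cell sums are thus falls in intensity for most tested markers, like that of PAOX. The 4 tested monocyte markers had a per-cell median of -0.20 log2 (all genes 0.97), so their fall is not one of intensity alone. What part these falls had in the results was not tested.

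After 24 hours of release the 4 synthesis genes had risen and 2 of the 3 breakdown genes had fallen relative to other genes. On the equal-median scale SRM was 7.62-fold and ODC1 4.47-fold higher, whereas SAT1 was 8.46-fold and PAOX 2.16-fold lower. In all, 5 members were called higher and 3 lower, against 37.7% and 26.0% of all genes tested. The members' median change was 0.18 log2 and that of all genes 0.054 log2. When arrays were centred on the tested genes instead, OAZ1 and SMOX were also called lower, and the split was 5 and 5 for the members and 3500 higher and 4931 lower for all genes, against 4598 and 3172 on the equal-median scale. That centring moved the median change of all genes from 0.054 to -0.15 log2.

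**Figure D1:**
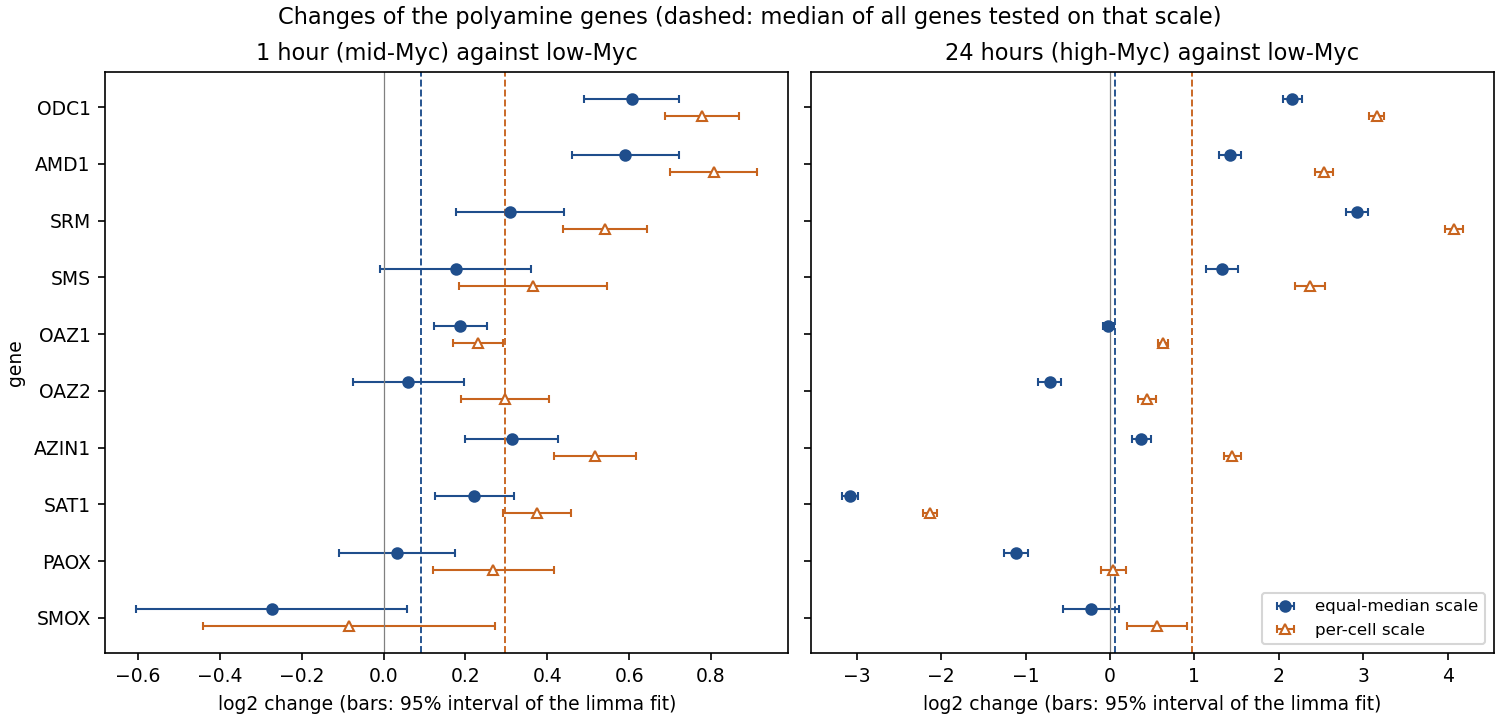
Log2 change of each polyamine gene at 1 hour (left) and 24 hours (right) against low-Myc, on the equal-median scale (filled circles) and the per-cell scale (open triangles), with bars for the 95% interval of the limma fit and dashed lines for the median of all genes tested on each scale. At 24 hours the 4 synthesis genes lie to the right of both dashed lines and SAT1 lies far to the left, at -3.08 and -2.14 log2.

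Measured per cell, most of the cycle was higher at 24 hours. On the per-cell scale 8 members were called higher, a share close to the 90.8% of all genes that were. SAT1 was the member called lower, as were 2.53% of all genes. PAOX did not pass the test on this scale (0.037 log2, 95% interval -0.11 to 0.19). The interval leaves out what the ERCC curve did not remove. The 19 ERCC probe sets within 1 log2 of PAOX had a median of -0.14 log2 (SD 0.23), and the 8 near SAT1 one of -0.18 log2. The median gene moved to 1.13 log2 with 1 ERCC factor per array and to 0.84 log2 with a curve of span 1, each with 8 members higher and 1 lower. Of all 12198 genes, 11494 were higher and 259 lower with 1 factor, and 10491 and 418 with span 1. The median member lay at 1.04 log2 and the median gene at 0.97 log2, and the members ranged from -2.14 to 4.08 log2.

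ODC1 encodes ornithine decarboxylase, which makes putrescine and is the main controlled step of synthesis. Its intensity was 817.7 and 767.8 in low-Myc, 1065 and 1109 in mid-Myc and 3229 and 3204 in high-Myc arrays. The 3 groups did not overlap, and the order followed the length of c-Myc release. On the equal-median scale ODC1 rose by 0.61 log2 at 1 hour (SE 0.05, adjusted p = 6.1e-06) and by 2.16 log2 at 24 hours (SE 0.05, adjusted p = 1.39e-12). On the per-cell scale its changes were 0.78 and 3.16 log2. ODC1 ranked 228 from the top of 12198 genes at 1 hour and 132 at 24 hours on the equal-median scale. It was read by 1 probe set, so no other probe set checks it.

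SRM encodes spermidine synthase, which turns putrescine into spermidine. Its intensity was 281.3 and 265.0 in low-Myc, 303.1 and 306.7 in mid-Myc and 1886 and 1891 in high-Myc arrays. Nearly all of its rise came after the first hour, and the groups did not overlap. On the equal-median scale SRM rose by 0.31 log2 at 1 hour (SE 0.06, adjusted p = 0.0021) and by 2.93 log2 at 24 hours (SE 0.06, adjusted p = 4.32e-13). On the per-cell scale the changes were 0.54 and 4.08 log2, or 16.9-fold at 24 hours. At 24 hours it ranked 20 from the top on the equal-median scale and 11 on the per-cell scale. The 1 other SRM probe set gave 0.33 and 2.91 log2 on the equal-median scale. The 1-hour call was lost in the values as deposited (0.16 log2, adjusted p = 0.0522).

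Both genes carry the letters CACGTG near a listed start site, and they are shown with SAT1, the member with the largest fall, for comparison. CACGTG is the canonical E-box bound by MYC with its partner MAX, it reads the same on both strands, and the paired sites in ODC1 are long known as MYC binding sites. The windows come from RefSeq (GRCh38.p14) and run from 250 bases before to 50 bases after each listed start. Of 35116 such windows over all genes, 7.26% hold the motif, and 8.77% of the genes have it in at least 1 window. For SRM (chr1:11060019-11060268, minus strand) and SAT1 (chrX:23782923-23783172, plus strand) the 250 bases before the start are printed. For ODC1 the 30 bases around each motif at its downstream start are printed (chr2:10448024-10448053 and chr2:10447990-10448019, minus strand). Capitals mark the motif.
SRM upstream: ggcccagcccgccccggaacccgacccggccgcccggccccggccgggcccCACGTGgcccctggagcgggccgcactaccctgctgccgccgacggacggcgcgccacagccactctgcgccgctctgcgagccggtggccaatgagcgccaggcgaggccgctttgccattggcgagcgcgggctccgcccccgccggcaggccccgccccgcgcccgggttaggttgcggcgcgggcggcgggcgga
ODC1 site 1: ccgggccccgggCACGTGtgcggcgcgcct
ODC1 site 2: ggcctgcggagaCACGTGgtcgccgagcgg
SAT1 upstream: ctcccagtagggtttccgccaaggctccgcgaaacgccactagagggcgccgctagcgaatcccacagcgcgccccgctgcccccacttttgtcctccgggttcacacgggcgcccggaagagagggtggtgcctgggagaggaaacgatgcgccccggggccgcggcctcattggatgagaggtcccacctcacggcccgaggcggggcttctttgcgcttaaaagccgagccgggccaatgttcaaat

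The motif of SRM begins 199 bases before its start. Those of ODC1 begin 29 bases before and 5 bases after the downstream of its 2 listed starts, and the window of the upstream start holds none. Of the 7 member genes with windows, ODC1 and SRM hold the motif, and AMD1, SMS, OAZ1, OAZ2 and SAT1 do not. A match is a description of the letters in the window. The windows of AZIN1, PAOX and SMOX were not used here.

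AMD1 encodes S-adenosylmethionine decarboxylase, which supplies the aminopropyl groups for both synthases. Its intensity was 501.9 and 459.2 in low-Myc, 662.9 and 640.1 in mid-Myc and 1173 and 1157 in high-Myc arrays. The 3 groups did not overlap. On the equal-median scale AMD1 rose by 0.59 log2 at 1 hour (SE 0.06, adjusted p = 1.88e-05) and by 1.42 log2 at 24 hours (adjusted p = 1.34e-10). Its 1-hour rise ranked 245 from the top of 12198 genes, close to ODC1. The 6 other AMD1 probe sets, all above the filter, lay at 0.27 to 0.65 log2 at 1 hour and 0.87 to 1.29 log2 at 24 hours on that scale, each with the sign of the one used.

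SMS encodes spermine synthase, which adds the last aminopropyl group. Its intensity was 921.4 and 731.4 in low-Myc, 835.6 and 837.0 in mid-Myc and 1842 and 1899 in high-Myc arrays. The mid-Myc arrays lay between both low-Myc arrays, and the high-Myc arrays stood above all others. SMS rose by 1.33 log2 on the equal-median scale at 24 hours (SE 0.09, adjusted p = 7.74e-09). At 1 hour it lay at 0.18 log2 and did not pass the test (95% interval -0.0077 to 0.36, adjusted p = 0.142). Without low-Myc replicate 1 the 1-hour value was 0.35 log2 and passed (adjusted p = 0.003), and without low-Myc replicate 2 it was 0.0029 log2 and did not. Its probe set (suffix x_at) is of the kind that can bind similar transcripts, as are those used for OAZ1 and, around the cycle, for EIF5A, DHPS, SLC3A2 and ADI1. The probe sets used for AMD1, OAZ2 and SAT1 carry the suffix s_at, which also marks sets that can match several transcripts. So do those of OAT, MAT2A, ALDH18A1 and SLC25A15. The 1 other SMS probe set above the filter gave 1.26 log2 at 24 hours.

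Among the synthesis genes the order of the changes differed between the times. ODC1 and AMD1 had the largest changes at 1 hour, with intervals (0.49 to 0.72 and 0.46 to 0.72 log2 on the equal-median scale) above that of SRM (0.18 to 0.44 log2). At 24 hours SRM had the largest, with an interval of 2.80 to 3.06 log2 against 2.04 to 2.28 for ODC1 and 1.29 to 1.55 for AMD1. SMS and AMD1 were not separated at 24 hours by their intervals (1.14 to 1.51 log2 for SMS). These are changes of different probe sets, which can respond to RNA with different slopes.

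**Figure D2:**
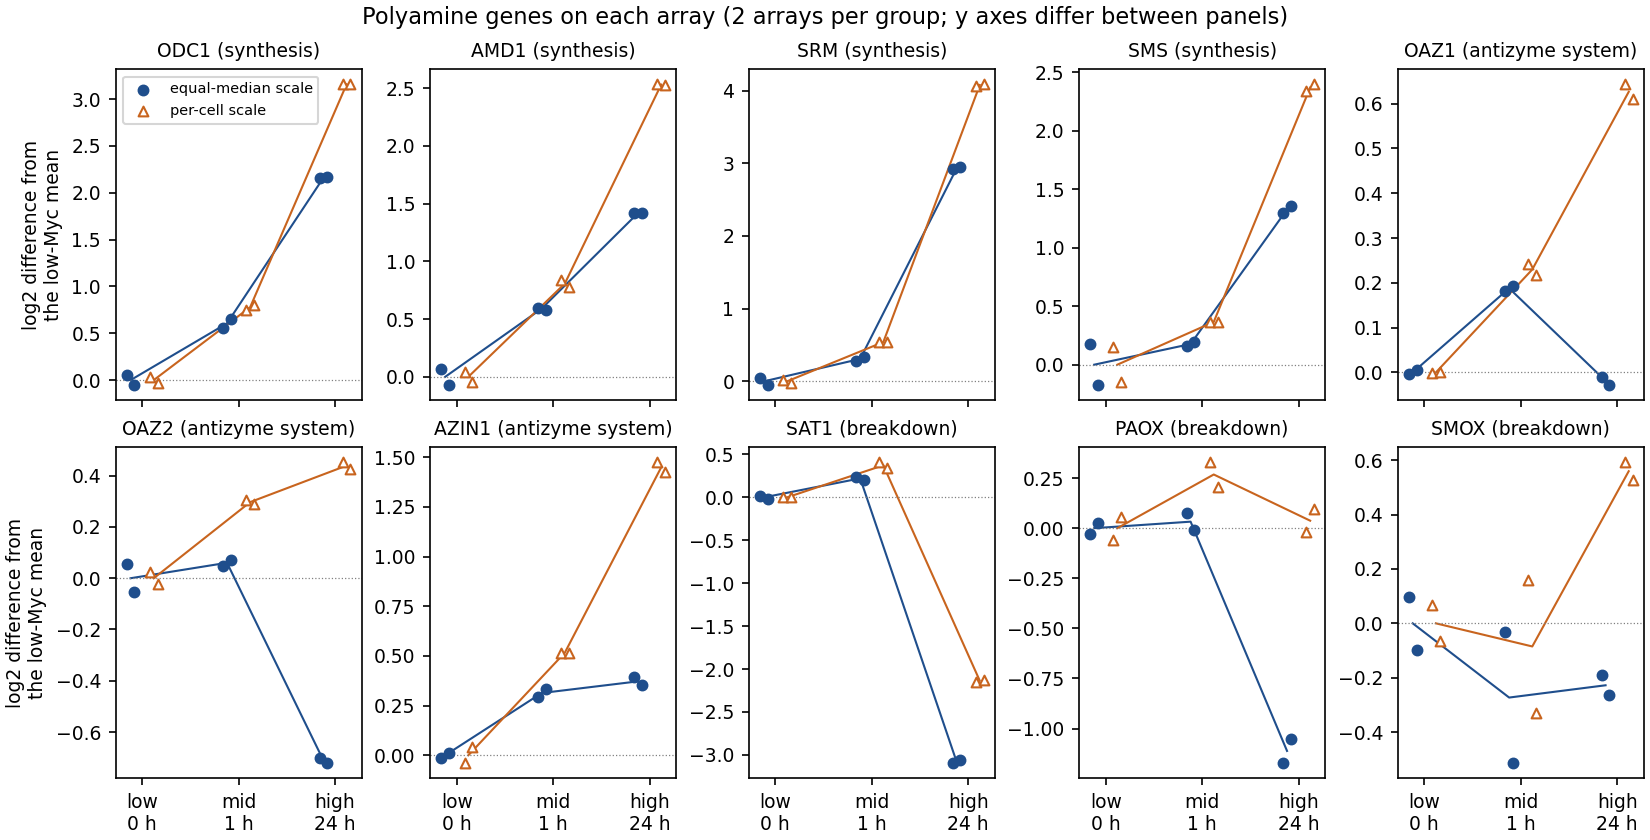
Each array of the 10 polyamine genes as a log2 difference from the gene's low-Myc mean, at 0, 1 and 24 hours, with filled circles for the equal-median scale, open triangles for the per-cell scale and lines through the group means. ODC1 and AMD1 are already raised at 1 hour, SRM and SMS rise mainly by 24 hours, and SAT1 drops only in the high-Myc arrays on either scale.

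The antizyme system showed smaller and mixed changes. OAZ1 encodes the main antizyme, whose protein is made through a ribosomal frameshift that polyamines promote, a step that mRNA levels do not show. Its intensity was 9786 and 9946 in low-Myc, 10209 and 10050 in mid-Myc and 8967 and 8720 in high-Myc arrays. In these deposited values high-Myc was lowest, and the groups did not overlap. OAZ1 lay at -0.019 log2 on the equal-median scale at 24 hours and did not pass the test (95% interval -0.083 to 0.046 log2). It passed as lower when arrays were centred on the tested genes (-0.22 log2), in the values as deposited (-0.16), and after quantile normalization (-0.22) or cyclic loess (-0.17). It rose by 0.63 log2 on the per-cell scale, below the median gene. It lies among the brightest probe sets, and the 10 ERCC probe sets within 1 log2 of it still stood 0.26 log2 (median, SD 0.21) above 0 after the curve was subtracted. Those within 1 log2 of each other member had medians below 0 at 24 hours, from -0.19 log2 for ODC1 to -0.11 log2 for SMOX.

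At 1 hour OAZ1 was higher by 0.19 log2 on the equal-median scale (SE 0.03, adjusted p = 0.000465), but it lay at -0.063 with quantile normalization and -0.060 with cyclic loess. Its direction at 1 hour therefore rests on the scaling, and the call was also lost without the variance trend (adjusted p = 0.0656). The 5 other OAZ1 probe sets gave 0.18 to 0.32 log2 on the equal-median scale.

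OAZ2, a second antizyme, fell relative to other genes at 24 hours. Its intensity was 587.2 and 549.5 in low-Myc, 535.5 and 532.1 in mid-Myc and 319.7 and 310.5 in high-Myc arrays. The high-Myc arrays stood below both other groups. OAZ2 fell by 0.71 log2 on the equal-median scale (SE 0.06, adjusted p = 2.21e-07), and its other probe set gave -0.59 log2. It rose by 0.44 log2 on the per-cell scale (adjusted p = 9.99e-06), against 0.97 log2 for the median gene, so the sign turned with the scale. At 1 hour it lay at 0.060 log2 on the equal-median scale and did not pass the test (95% interval -0.076 to 0.20 log2).

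AZIN1 encodes an antizyme inhibitor, a relative of ornithine decarboxylase without its activity that binds antizyme. Its intensity was 787.8 and 811.0 in low-Myc, 893.4 and 896.7 in mid-Myc and 960.1 and 919.0 in high-Myc arrays. The groups did not overlap, and the step from 1 to 24 hours was small. AZIN1 rose by 0.31 log2 on the equal-median scale at 1 hour (SE 0.05, adjusted p = 0.000707) and by 0.37 log2 at 24 hours (adjusted p = 2.51e-05). The changes were 0.52 and 1.45 log2 on the per-cell scale. At 1 hour the call was lost with quantile normalization (0.12 log2, adjusted p = 0.0965) and cyclic loess (0.14 log2, adjusted p = 0.0656). The other AZIN1 probe set gave 0.12 log2 at 1 hour and 0.33 log2 at 24 hours on the equal-median scale.

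SAT1 encodes the spermidine and spermine acetyltransferase that starts polyamine breakdown and export. Its intensity was 3984 and 3927 in low-Myc, 4249 and 4066 in mid-Myc and 423.0 and 426.0 in high-Myc arrays. The low-Myc and mid-Myc arrays lay close together, and both high-Myc arrays were far below. SAT1 fell by 3.08 log2 on the equal-median scale at 24 hours (SE 0.04, adjusted p = 1.26e-14), rank 9 from the bottom of 12198 genes. It fell by 2.14 log2 on the per-cell scale, or 4.40-fold (SE 0.04, adjusted p = 2.87e-11), rank 10 from the bottom. The 2 other SAT1 probe sets gave -2.92 and -2.85 log2 on the equal-median scale and -1.78 and -1.72 log2 on the per-cell scale. Its high-Myc intensity was above the second brightest of the 23 background control probe sets, whose mean intensity was 194, and below the brightest (697).

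At 1 hour SAT1 was higher by 0.22 log2 on the equal-median scale (SE 0.04, adjusted p = 0.00229) and by 0.37 log2 on the per-cell scale (adjusted p = 3.01e-05). It lay at 0.072 log2 in the values as deposited (adjusted p = 0.208) and at -0.0048 log2 with quantile normalization (adjusted p = 0.946), so a rise at 1 hour rests on the scaling. From 1 to 24 hours it fell by 3.30 log2 on the equal-median scale and by 2.51 log2 on the per-cell scale.

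PAOX encodes the oxidase that acts on acetylated polyamines. Its intensity was 640.3 and 671.4 in low-Myc, 629.3 and 580.5 in mid-Myc and 266.1 and 285.2 in high-Myc arrays. The high-Myc arrays stood below the other 4. PAOX fell by 1.11 log2 on the equal-median scale at 24 hours (SE 0.07, adjusted p = 3.38e-09). Its 5 other probe sets above the filter ranged from -0.89 to 0.073 log2, and 1 of them had the opposite sign. That probe set and others of PAOX were dim, near the filter level, as the plot of all probe sets shows. PAOX was higher at 1 hour by 0.27 log2 on the per-cell scale (adjusted p = 0.00565), a call lost without low-Myc replicate 1 (adjusted p = 0.0513) and without mid-Myc replicate 1 (adjusted p = 0.0527). With the mean of the PAOX probe sets above the filter, the per-cell value at 24 hours was 0.37 log2 and passed the test (adjusted p = 0.000135).

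SMOX encodes spermine oxidase, which turns spermine directly back into spermidine. Its intensity was 70.9 and 62.7 in low-Myc, 59.5 and 41.6 in mid-Myc and 53.5 and 49.996 in high-Myc arrays, and 5 of the 23 background probe sets were as bright or brighter in each group. The mid-Myc arrays spanned a wider range than the other groups, and without mid-Myc replicate 1 the 1-hour value on the equal-median scale was -0.51 log2 and passed (adjusted p = 0.0337), while without mid-Myc replicate 2 it was -0.032 log2 and did not. SMOX did not pass the test at 24 hours (-0.23 log2 on the equal-median scale, 95% interval -0.56 to 0.10) or at 1 hour (-0.27 log2, 95% interval -0.60 to 0.058). It was called higher at 24 hours by 0.56 log2 on the per-cell scale (SE 0.16, adjusted p = 0.00711). Its 3 other probe sets were below the filter. SMOX therefore lay within the range of the background probe sets.

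**Figure D3:**
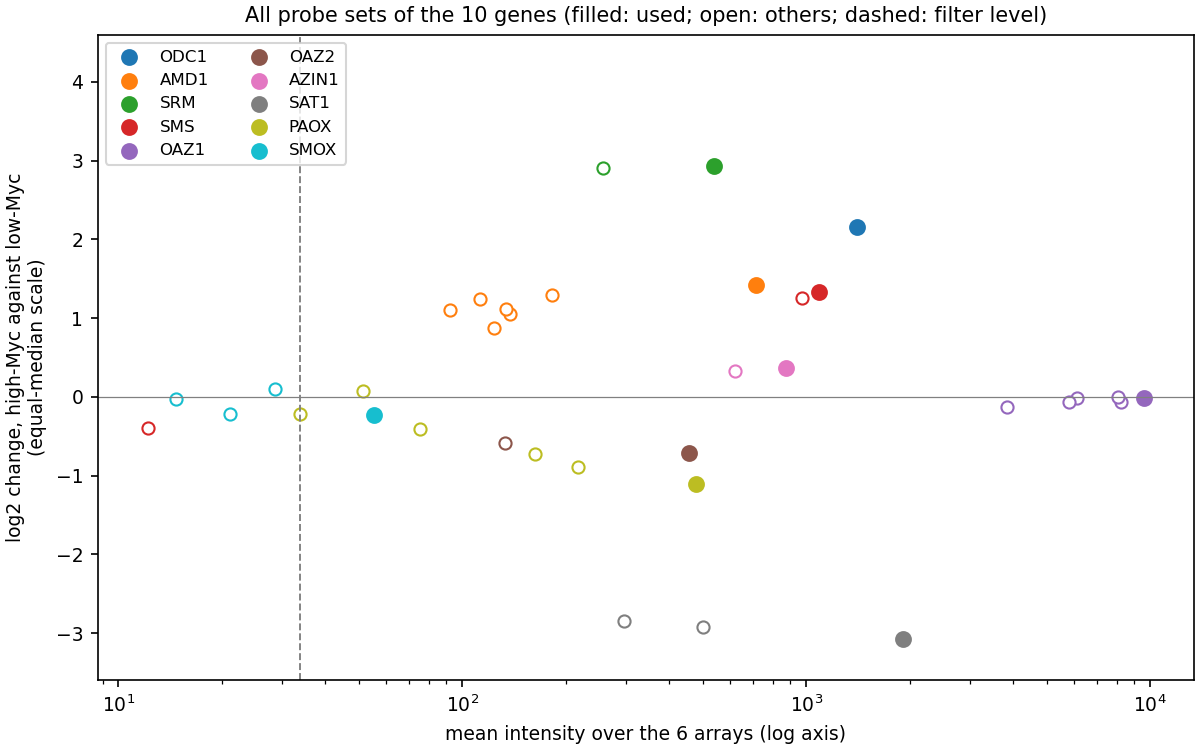
All 36 probe sets of the 10 genes, with mean intensity over the 6 arrays on a log axis and the log2 change from low-Myc to high-Myc on the equal-median scale, filled for the probe set used and open for the others, and a dashed line at the filter level of 33.8 intensity. The SRM, SMS, AMD1 and SAT1 probe sets right of the line lie together by gene, while those of PAOX spread from -1.11 to 0.073 log2.

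The contrast of synthesis with breakdown was also read on each array, with every gene set to 0 at its low-Myc mean. The 4 synthesis genes averaged 1.95 and 1.97 log2 on the equal-median scale in the high-Myc arrays, and the 3 breakdown genes -1.49 and -1.46 log2. Their difference was 3.43 log2 on both high-Myc arrays (SD 0.00019, n = 2). It was 0.31 and 0.55 log2 on the mid-Myc arrays (SD 0.17) and 0.058 and -0.058 log2 on the low-Myc arrays (SD 0.082). The SD of the difference pooled within groups was 0.11 log2, so the high-Myc SD alone does not measure its precision. The arrays of the 3 groups did not overlap in this difference. The high-Myc difference was 3.55 log2 on the per-cell scale, where SAT1 was the breakdown gene below 0 (-2.14 log2, against 0.037 for PAOX and 0.56 for SMOX). Without SRM and SAT1 the difference on the equal-median scale was 2.31 log2 at 24 hours and 0.58 log2 at 1 hour. No test was made of it, because the members were chosen with results of these data known.

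**Figure D4:**
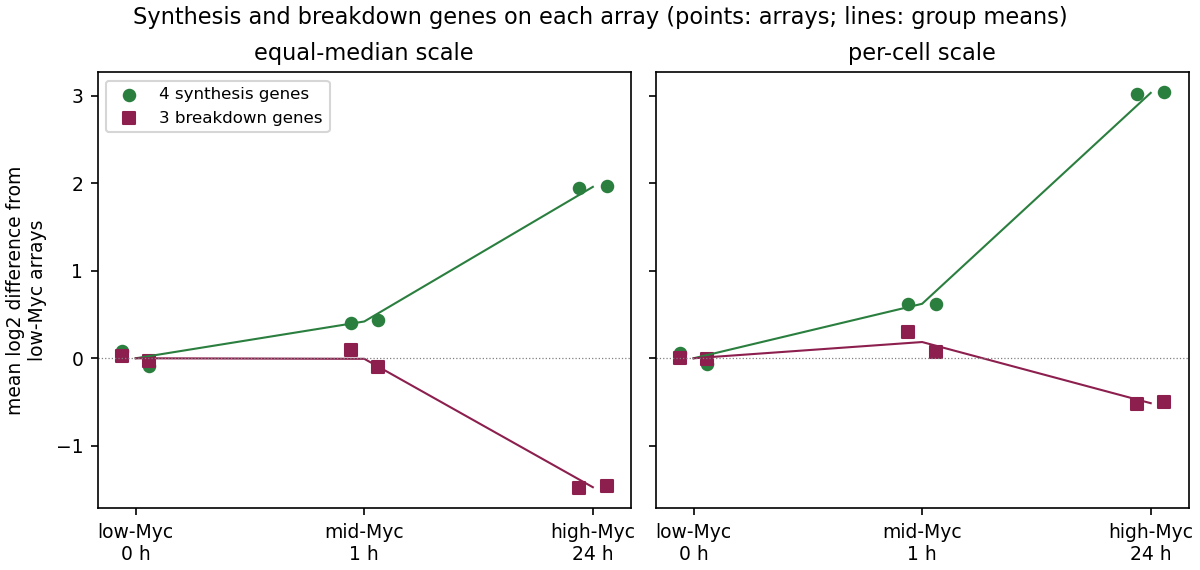
Mean log2 difference from the low-Myc arrays of the 4 synthesis genes (circles) and the 3 breakdown genes (squares) on each array, by group, on the equal-median scale (left) and the per-cell scale (right). The sets part at 24 hours, to 1.96 and -1.47 log2 on the equal-median scale and to 3.03 and -0.51 log2 on the per-cell scale, where SAT1 alone of the breakdown genes lies below 0.

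After 1 hour of release the changes of the cycle were small and, where called, upward. On the equal-median scale 6 members (ODC1, AMD1, SRM, OAZ1, AZIN1 and SAT1) were called higher, against 25.7% of all genes, and the other 4 did not pass, while 3.39% of all genes were called lower. The median member lay at 0.20 log2 and the median gene at 0.091 log2. With the values as deposited, quantile normalization or cyclic loess, 3 members were called higher. ODC1 and AMD1 were called under each of these scalings, at 0.41 to 0.61 log2 for ODC1 and 0.42 to 0.59 log2 for AMD1. In the values as deposited the median gene lay at -0.058 log2. Over all genes 1131 were called higher and 1489 lower there, against 3139 and 414 on the equal-median scale. Quantile normalization gave 955 higher and 1195 lower, and cyclic loess 1053 and 1034. On the per-cell scale 9 members were called higher, against 62.4% of all genes, with SMOX (-0.085 log2) the exception, and 0.697% of all genes were called lower.

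Between 1 and 24 hours the members parted again. On the equal-median scale 4 were called higher (ODC1, AMD1, SRM and SMS) and 4 lower (SAT1, PAOX, OAZ2 and OAZ1), against 33.3% and 30.9% of all genes. The rises were 1.55 log2 for ODC1, 0.83 for AMD1, 2.62 for SRM and 1.15 for SMS. The falls were -3.30 log2 for SAT1, -1.14 for PAOX, -0.77 for OAZ2 and -0.21 for OAZ1. AZIN1 (0.059 log2, adjusted p = 0.355) and SMOX (0.045 log2, adjusted p = 0.819) did not pass. On the per-cell scale 8 were called higher and 2 lower, SAT1 (-2.51 log2) and PAOX (-0.23 log2, adjusted p = 0.00811), against 81.7% and 6.57% of all genes. Of the 5 other PAOX probe sets above the filter, only 2 shared its sign on this scale, and the 5 ranged from -0.24 to 0.59 log2. The per-cell call of PAOX was lost without mid-Myc replicate 1 (adjusted p = 0.0728) and without high-Myc replicate 1 (adjusted p = 0.0562). The small per-cell rise of OAZ2 (0.14 log2) was lost with 1 ERCC factor per array (0.095 log2, adjusted p = 0.0941), with a wider ERCC curve of span 1 (adjusted p = 0.236), without mid-Myc replicate 1 or 2 (adjusted p = 0.0538 and 0.0735) and without high-Myc replicate 1 (adjusted p = 0.0615).

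The genes around the cycle were taken from lists of 27 genes, of which 22 passed the filter. OAZ3, EIF5A2, ARG1, ARG2 and ATP13A4 did not. At 24 hours 18 of the 22 were higher and 2 lower on the equal-median scale, where 37.7% and 26.0% of all genes were, with a median of 0.91 log2 against 0.054 for all genes. On the per-cell scale 21 were higher (median 2.02 log2, all genes 0.97), a share near the 90.8% of all genes. At 1 hour 11 of the 22 were higher on the equal-median scale, where 25.7% of all genes were (median 0.17 log2, all genes 0.091). From 1 to 24 hours 16 were higher and 2 lower on the equal-median scale, against 33.3% and 30.9% of all genes (median 0.63 log2, all genes 0.025). Per cell 21 were higher and 1 lower over that interval, against 81.7% and 6.57% of all genes.

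**Figure D5:**
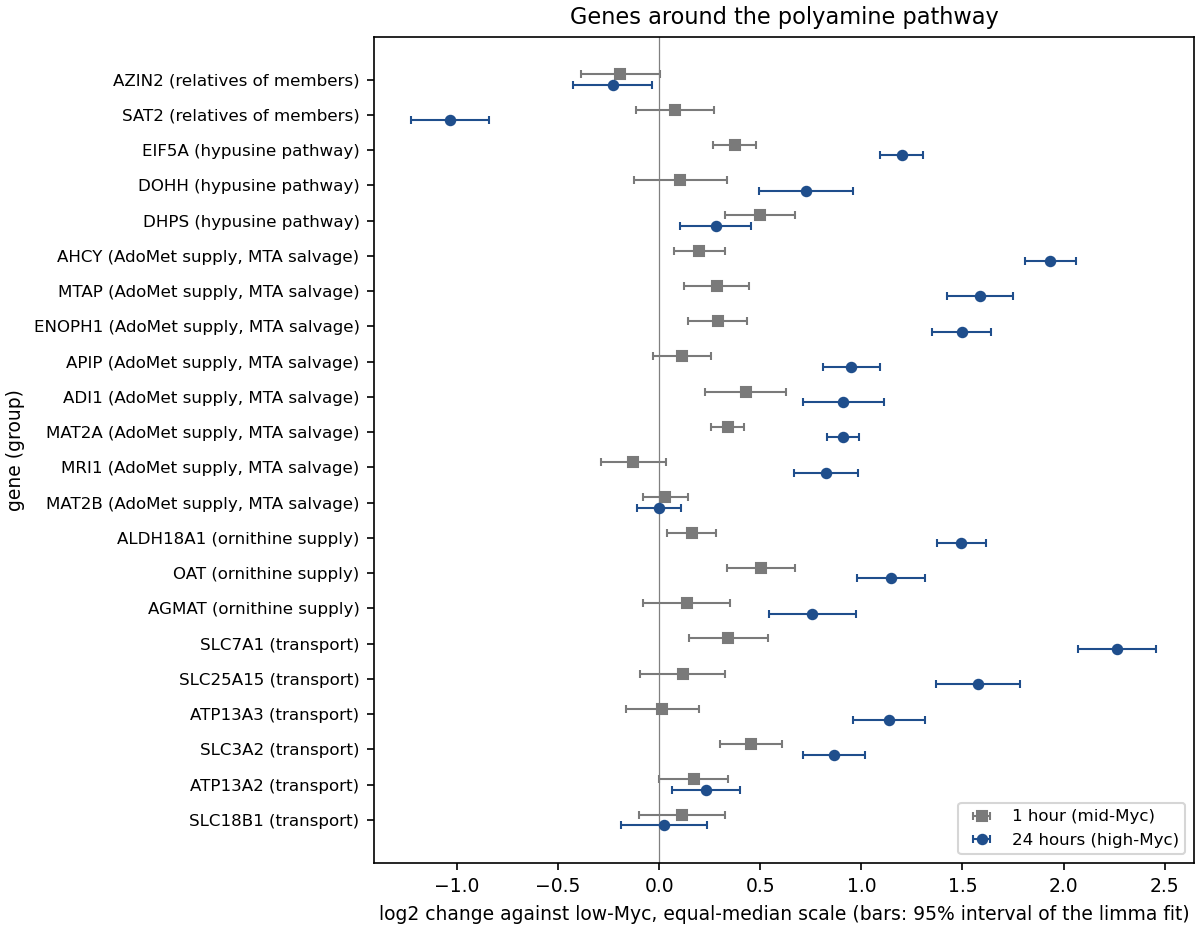
Log2 change against low-Myc on the equal-median scale for the 22 tested genes around the polyamine cycle, at 1 hour (grey squares) and 24 hours (blue circles), with bars for the 95% interval of the limma fit. Most lie to the right of 0 at 24 hours, SLC7A1 farthest at 2.26 log2, while SAT2 lies at -1.03 log2.

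Supply of S-adenosylmethionine and salvage of methylthioadenosine, the by-product of both synthases, rose at 24 hours in 7 of 8 genes on the equal-median scale. There 37.7% of all genes were called higher. On the per-cell scale all 8 were, as were 90.8% of all genes. AHCY, which clears S-adenosylhomocysteine, rose by 1.94 log2, from 449.9 and 427.8 to 1499 and 1547 intensity. MTAP, which cleaves methylthioadenosine, rose by 1.59 log2, from 113.9 and 116.2 to 312.7 and 314.7 intensity. MAT2A, which makes S-adenosylmethionine, rose by 0.34 log2 at 1 hour and 0.91 log2 at 24 hours. The dioxygenase ADI1 of the salvage pathway rose by 0.43 log2 at 1 hour. MAT2B, the regulatory partner of MAT2A, did not pass the test (-0.00088 log2).

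The 3 tested genes of the ornithine list (OAT, ALDH18A1 and AGMAT) also rose at 24 hours on the equal-median scale, where 37.7% of all genes did. AGMAT, whose product is putrescine and not ornithine, rose by 0.76 log2. ALDH18A1, which makes the precursor of ornithine and proline from glutamate, rose by 1.33 log2 between 1 and 24 hours. OAT, the mitochondrial aminotransferase that links glutamate semialdehyde with ornithine, had risen by 0.50 log2 at 1 hour. Among 6 tested transport genes 5 rose at 24 hours on that scale. Per cell, all tested genes of both lists were called higher at 24 hours, as were 90.8% of all genes. SLC7A1, a carrier of arginine, lysine and ornithine, rose by 2.26 log2, from 80.5 and 76.8 to 338.7 and 347.6 intensity. The mitochondrial ornithine carrier SLC25A15 rose by 1.58 log2, and SLC3A2, the heavy chain of amino acid exchangers, by 0.45 log2 at 1 hour and 0.87 log2 at 24 hours.

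Spermidine is also the donor for hypusine, a modified lysine of the translation factor EIF5A. EIF5A rose by 0.37 log2 at 1 hour and 1.20 log2 at 24 hours on the equal-median scale (adjusted p = 9.08e-11), with intensities of 1110 and 1076 in low-Myc and 2254 and 2304 in high-Myc arrays. All 3 tested genes of this list were higher at 24 hours on both scales. Of all genes 37.7% were higher on the equal-median scale and 90.8% on the per-cell scale. DHPS, the enzyme that uses spermidine to modify EIF5A, was higher by 0.50 log2 at 1 hour and 0.28 log2 at 24 hours. Of the 2 tested relatives of members, both were lower at 24 hours on the equal-median scale, as were 26.0% of all genes. SAT2, which shares sequence with SAT1, lay at -1.03 log2 and AZIN2 at -0.23 log2. The direction turned on the per-cell scale, where AZIN2 was called higher (0.75 log2, adjusted p = 3.23e-05) and SAT2 did not pass the test (0.090 log2).

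The genes nearest to 3 members were found by the Euclidean distance between profiles over the 6 arrays on the equal-median scale, each centred on its own mean. For SRM they were PAICS (0.078 log2), NDUFAF2 (0.13) and PSMG1 (0.16), against a median distance of 3.19 for all genes. For ODC1 they were NOLC1 (0.14), GRPEL1 (0.14) and YBX3 (0.15), against a median of 2.20. For SAT1 they were DUSP1 (0.29), MIR22HG (0.38) and CCL3 (0.42), against a median of 3.74. DUSP1 lay at 0.48 log2 at 1 hour and -2.90 log2 at 24 hours against low-Myc. These distances describe 3 groups of arrays and carry no test.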

How the data were processed

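RNA from 6 P493-6 samples was hybridised to 1-colour Affymetrix arrays. The authors deposited linear intensity per probe set, made with MAS5 per the submitters' processing notes, and its version and scaling target were not stated there. There were 49293 human, 100 ERCC and 102 other control probe sets. The platform annotation gave 45278 of them 1 symbol (45208 updated through Entrez identifiers), 1333 several and 2682 none, and the last 2 kinds were left unnamed.

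For each gene the probe set brightest on average (mean log2) stood for it, and genes were tested above the 40th percentile of human probe sets. For the per-cell scale, a robust loess fit to the ERCC probe sets (span 0.7 and degree 1) was subtracted at each probe set's mean. A single limma 3.58.1 model (R 4.3.3) with a trended variance covered all 6 arrays and gave two-sided tests. At 2 arrays a group, p = 0.333 is the smallest value that exact permutation allows. The labels do not describe how the duplicates were grown apart, so p-values measure the spread between these arrays, which may be technical. The code was tested on simulated data. The number of arrays limits the precision.

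All members and MYC were named. Around the cycle, the 4 genes per comparison with the largest called change on the equal-median scale and arrays that did not overlap were named. EIF5A, MAT2A and SLC3A2 were named whatever their values, while SAT2, AZIN2, MAT2B and AGMAT were named after their values were seen. Members, lists and tests were chosen with earlier results of these data known. Alternatives covered scaling, filter, a pseudocount of 16, probe sets, variance trend, groups fitted, the replicate number and each array left out.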

Additional observations from a re-analysis of the deposited data

Results flagged for a closer look

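For 4 members the 1-hour and 24-hour changes against low-Myc had opposite signs on the equal-median scale, and the difference between the times passed the limma test. From 1 to 24 hours SAT1 changed by -3.30 log2, PAOX by -1.14, OAZ2 by -0.77 and OAZ1 by -0.21. The 1-hour values were called for SAT1 and OAZ1 and not for PAOX and OAZ2, and the sign of each at 1 hour turned under at least 1 other scaling.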

How the results depend on the processing

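Of 99 recomputed counts of called members, 96 stayed within 1.5 times the reported count. The equal-median count at 1 hour fell from 6 to 3 with the values as deposited, 3 with quantile normalization and 3 with cyclic loess. Over all genes the number called higher also fell, from 3139 to 1131, 955 and 1053. The number called lower went from 414 to 1489, 1195 and 1034. Centring on the tested genes gave 4 members (all genes 1527 higher, 1077 lower), and no variance trend gave 5 (all genes 2149 higher, 323 lower). Leaving out 1 array left 1 array in a group, and the member counts of those fits are not listed. For the replicate block the order is 24 hours against low-Myc, 1 hour against low-Myc and 24 hours against 1 hour. With it 8, 6 and 8 members were called on the equal-median scale, and 9, 9 and 10 on the per-cell scale. Of all 12198 genes, 7817, 3654 and 7881 were called on the first scale and 11392, 7670 and 10762 on the second. All 60 member values kept their side of the threshold with the block. Deviations of same-numbered arrays correlated at 0.0022, -0.0034 and -0.0022, so no shared deviation by replicate number was seen. This cannot show whether same-numbered samples were prepared together.

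Among single values, 798 of the called ones kept direction and call, 18 lost the call and 4 turned sign. Among those not called, 9 gained a call and 20 turned sign. At 1 hour on the equal-median scale, the values as deposited gave -0.090 log2 for OAZ2 and -0.12 for PAOX. Quantile normalization gave -0.010 for SMS, -0.063 for OAZ1, -0.11 for OAZ2, -0.0048 for SAT1 and -0.14 for PAOX. Cyclic loess gave -0.0052 for SMS, -0.060 for OAZ1, -0.090 for OAZ2 and -0.12 for PAOX. Centring on the tested genes gave -0.055 for OAZ2 and -0.082 for PAOX, and -0.030 for AZIN1 and -0.043 for SMOX from 1 to 24 hours. A pseudocount of 16 gave -0.0024 for PAOX at 1 hour. On the per-cell scale PAOX at 24 hours was -0.034 with 1 ERCC factor per array and -0.071 with span 1, and from 1 to 24 hours 0.099 with the mean of its probe sets. Leaving out 1 array gave PAOX -0.0087 to 0.074 at 1 hour and SMOX -0.20 to 0.29 from 1 to 24 hours on the equal-median scale, and PAOX -0.021 to 0.096 at 24 hours and SMOX -0.33 to 0.16 at 1 hour on the per-cell scale.

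Synthesis minus breakdown at 24 hours was 3.55 log2 on the per-cell scale, 3.125 with the mean of probe sets and 2.31 without SAT1 and SRM. At 1 hour it was 0.58 without SAT1 and SRM, and 0.31 to 0.55 with 1 array left out. From 1 to 24 hours it was 2.76 with the mean of probe sets, 1.73 without SAT1 and SRM, and 2.89 to 3.12 with 1 array left out. The cause of these shifts was not tested. SMOX lay near background, and MAS5 values of dim probe sets limit what its changes show.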
